A study of Mus musculus with 3 samples.

Results

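The transcription factors that give sensory neurons of the dorsal root ganglion (DRG) their subtype identity were followed across neuron subtypes, across the other cell classes of the ganglion and between adult and aged mice. The 10 genes were Runx1, Runx3, Shox2, Maf, Mafa, Pou4f1, Pou4f2, Isl1, Etv1 and Prdm12, taken by symbol from the 32227 genes of the count tables. All 10 had counts in each of the 3 libraries. DRGs of the L3 to L5 levels came from C57BL/6 mice, for which the labels give no treatment or altered gene. The labels give 1 adult library (3 months) and 2 aged libraries (21 months), all male, while the methods of the study call the aged mice female and the text of the series gives a younger age for them. Frozen ganglia were broken into nuclei, and the nuclear RNA was tagged at its 3′ end with unique molecular identifiers (UMIs) by PIP-seq, which captures single nuclei with barcoded beads. The study calls the libraries biological replicates, and each counts as 1 sample. How many mice went into a library is not stated.

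Sensory neurons start from shared progenitors that all switch on Isl1 (a LIM homeodomain factor) and Pou4f1 (also called Brn3a, a POU domain factor), which help to end the progenitor program. Factors with narrower expression then divide them. Runx1 directs the neurons of pain, itch and temperature that lack neuropeptides, and Runx3 directs proprioceptors, the muscle sense. Shox2, Maf and Mafa act in the neurons of touch, Pou4f2 is a close relative of Pou4f1, Etv1 (Er81) is needed by proprioceptors, and Prdm12 is needed for nociceptors to form.

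All 10 genes are protein coding in GENCODE M21 on GRCm38. Runx1 lies at chr16:92601466-92826149 on the minus strand, Runx3 at chr4:135120652-135177990 on the plus strand, Shox2 at chr3:66971727-66981771 on the minus strand, Maf at chr8:115682942-115707794 on the minus strand and Mafa at chr15:75745490-75748228 on the minus strand. Pou4f1 lies at chr14:104461676-104467999 on the minus strand, Pou4f2 at chr8:78433010-78436645 on the minus strand, Isl1 at chr13:116298281-116309689 on the minus strand, Etv1 at chr12:38779380-38870484 on the plus strand and Prdm12 at chr2:31640037-31655795 on the plus strand. Rsrc1 overlaps Shox2 on the opposite strand and held 25703 UMIs in neuron-like nuclei. The antisense gene Gm13425 overlaps Prdm12 and held 4557. Whether reads were counted by strand is not stated, and reads of such pairs may be mixed. The log2 fold changes of Rsrc1 were -0.33 in the large-fiber-like sums and 0.72 in the proprioceptor-like sums, against the 4.004 and 2.55 of Shox2 given later.

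Promoter windows of 8 of the 10 genes (11 windows) were at hand in RefSeq, GRCm38.p6, and the 250 bases before each start were read for the core letters that RUNX proteins bind (TGTGGT on either strand), since Runx1 and Runx3 are RUNX proteins themselves. The window of Runx3 held the reverse form of these letters 2 times within 38 bases at chr4:135120499-135120536, the nearer 126 bases and the farther 134 bases before the start. A window of Etv1 held the letters once at chr12:38779878-38779907, 192 bases before the start. These stretches are shown because they are the only matches to these letters among the members' windows. Capitals mark the matched letters.
Runx3: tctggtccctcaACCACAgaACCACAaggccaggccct
Etv1: aaggctggagcgTGTGGTgggtggactccg
The same letters lay in 14.1% of all 32851 windows of that length. The homeodomain core TAATTA, found in 4.84% of all windows, lay in no member's window. The MAF letters TGCTGAC, found in 3.81% of windows, lay once before the other start of Etv1, 25 bases from it at chr12:38783674-38783704. A match describes letters only, and these data do not measure binding.
Etv1, other start: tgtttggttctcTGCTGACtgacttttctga

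Barcodes with more than 1000 genes numbered 19259, of which 11518 came from the adult library, 5130 from aged replicate 1 and 2611 from aged replicate 2. Library totals ran from 69045987 to 167664164 UMIs. Libraries shared 0 or 1 barcodes. Clusters were named from marker lists that held none of the 10 genes. The 10 genes were also kept out of the features used for clustering, so that their own counts did not set the names. Genes that vary with them, such as Gm13425, were not kept out, and the clusters were drawn from the same nuclei. Neuron-like nuclei numbered 8283, and 12 neuron subtypes with 20 or more nuclei in each library were compared. A subtype is called "like" a known type where at least 3 markers of that type were raised in it, the first marker of the list among them, and no other list had as large a share of its markers raised. The other 3 subtypes are called by their leading genes, since they held 3 or 4 markers of a list without its first marker (Mrgprd in the Mrgpra3 and Tmprss11c cluster, Nefh in the Tll1 and Ntng1 cluster) or equal shares of 2 lists (the Htr3a and Creg2 cluster). Of the A-delta LTMR-like nuclei 91, a low-Malat1 cluster, held 4 markers of that list and 5 of the longer large-fiber list, and with coarser clustering (resolution 0.4) they took the large-fiber name. In all neuron-like nuclei Malat1, an RNA retained in the nucleus, took 4.32% of UMIs in the adult and 1.35% and 1.55% in aged replicates 1 and 2. Malat1 was also higher in the adult library in each other class. In the same order it took 5.07%, 1.42% and 1.39% in myeloid-like and 6.60%, 2.14% and 2.14% in myelinating Schwann-like nuclei. In 5 neuron clusters its median share was under 0.576%, a limit set from the median of all neuron-like nuclei. These low-Malat1 clusters held 2121 nuclei, or 18.7%, 37.7% and 27.3% of neuron-like nuclei by library, and their part in the results is given below. Levels are given in CPM, the UMIs of the gene scaled by all UMIs of the nuclei of a class and library, in the order adult, aged replicate 1, aged replicate 2. As a measure of free RNA, the same value was taken over barcodes of at most 100 UMIs.

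To ask which members mark neurons at all, neuron-like sums were set against the mean of the fitted log2 levels of the other 7 classes. On that scale a class with low levels weighs as much as one with high levels. Of the 9 members with enough counts, 7 were higher in neurons and 1 was lower, against a background of 63.3% of 14908 genes called in either direction (edgeR quasi-likelihood test, Benjamini-Hochberg adjusted p under 0.05). Isl1 was at 147, 157 and 149 CPM in neurons, and no library of another class exceeded 38.4. That is a log2 fold change of 3.08 ± 0.19 (SE), with an adjusted p of 5.54e-12. Prdm12 followed with 2.50 ± 0.16 (adjusted p = 1.46e-11), at 107, 140 and 136 CPM in neurons. Pou4f2 had 2.38 ± 0.30 (adjusted p = 4.46e-07) and Pou4f1 2.27 ± 0.20 (adjusted p = 2.34e-09). Pou4f2 passed the low-count filter only through the neuron-like sums (9.82 to 10.5 CPM), with at most 6.17 CPM in any other class library. Its call was thus favored by the filter and is no separate support. Isl1, Prdm12, Pou4f2 and Pou4f1 were higher in every neuron-like library than in any library of another class. How many of all genes separate in this way was not counted. Of the UMIs in kept barcodes, neuron-like nuclei held 94.1% for Isl1, 92.6% for Pou4f2, 91.4% for Prdm12 and 89.5% for Pou4f1. These shares also carry depth, since neuron-like nuclei held most UMIs of all genes. By library they held 67320284, 40601403 and 30141180 UMIs. The next named class, satellite glial cell (SGC)-like nuclei, held 10076903, 3993830 and 2086997. A gene at an even level would thus also lie mostly in neurons.

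The other members were shared with other classes. Runx1, which also directs blood cell formation, was at 346, 311 and 356 CPM in neurons but at 651, 949 and 1172 in myeloid-like and 796, 728 and 948 in lymphocyte-like nuclei. Its libraries did not overlap between neurons and either immune class. Against the mean log2 level of the 7 other classes, most of which were low, neurons were still higher (log2 fold change 1.25 ± 0.17, adjusted p = 1.21e-06). This does not compare them with the mean CPM of those classes. Runx3, which also acts in T lymphocytes, was highest in myeloid-like nuclei at 54.1, 49.3 and 52.1 CPM, against 6.08, 10.0 and 7.23 in neurons as a whole. It was the member for which no difference passed the test (log2 fold change 0.07 ± 0.25, adjusted p = 0.83).

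Maf, a large MAF protein also known from Schwann cell myelination and macrophages, ran the other way and fell in neurons with a log2 fold change of -1.98 ± 0.23 (adjusted p = 9.45e-08). It stood at 863, 968 and 996 CPM in myelinating Schwann-like nuclei, the highest class, and at 66.9, 61.7 and 43.8 in neurons, the class with the lowest mean. SGC-like nuclei held 374, 346 and 316 CPM. Of the Maf UMIs in kept barcodes 33.6% lay in neurons.

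Etv1 was called higher in neurons at 0.96 ± 0.17 (adjusted p = 3.28e-05), but fibroblast-like nuclei (114, 179 and 190 CPM) overlapped neurons (147, 146 and 112 CPM). The Schwann classes also parted, with 110, 165 and 129 CPM of Etv1 in non-myelinating and 46.3, 44.3 and 23.3 in myelinating Schwann-like nuclei. Shox2 was at 10.4, 18.6 and 11.2 CPM in neurons (log2 fold change 1.5 ± 0.25, adjusted p = 2.05e-05). Mafa, at 2.33, 7.61 and 3.48 CPM in neurons, had too few counts in the classes, neurons included, for this test. Its highest mean lay in myelinating Schwann-like nuclei, at 5.79, 5.75 and 2.21 CPM, which overlapped neurons.

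**Figure D1:**
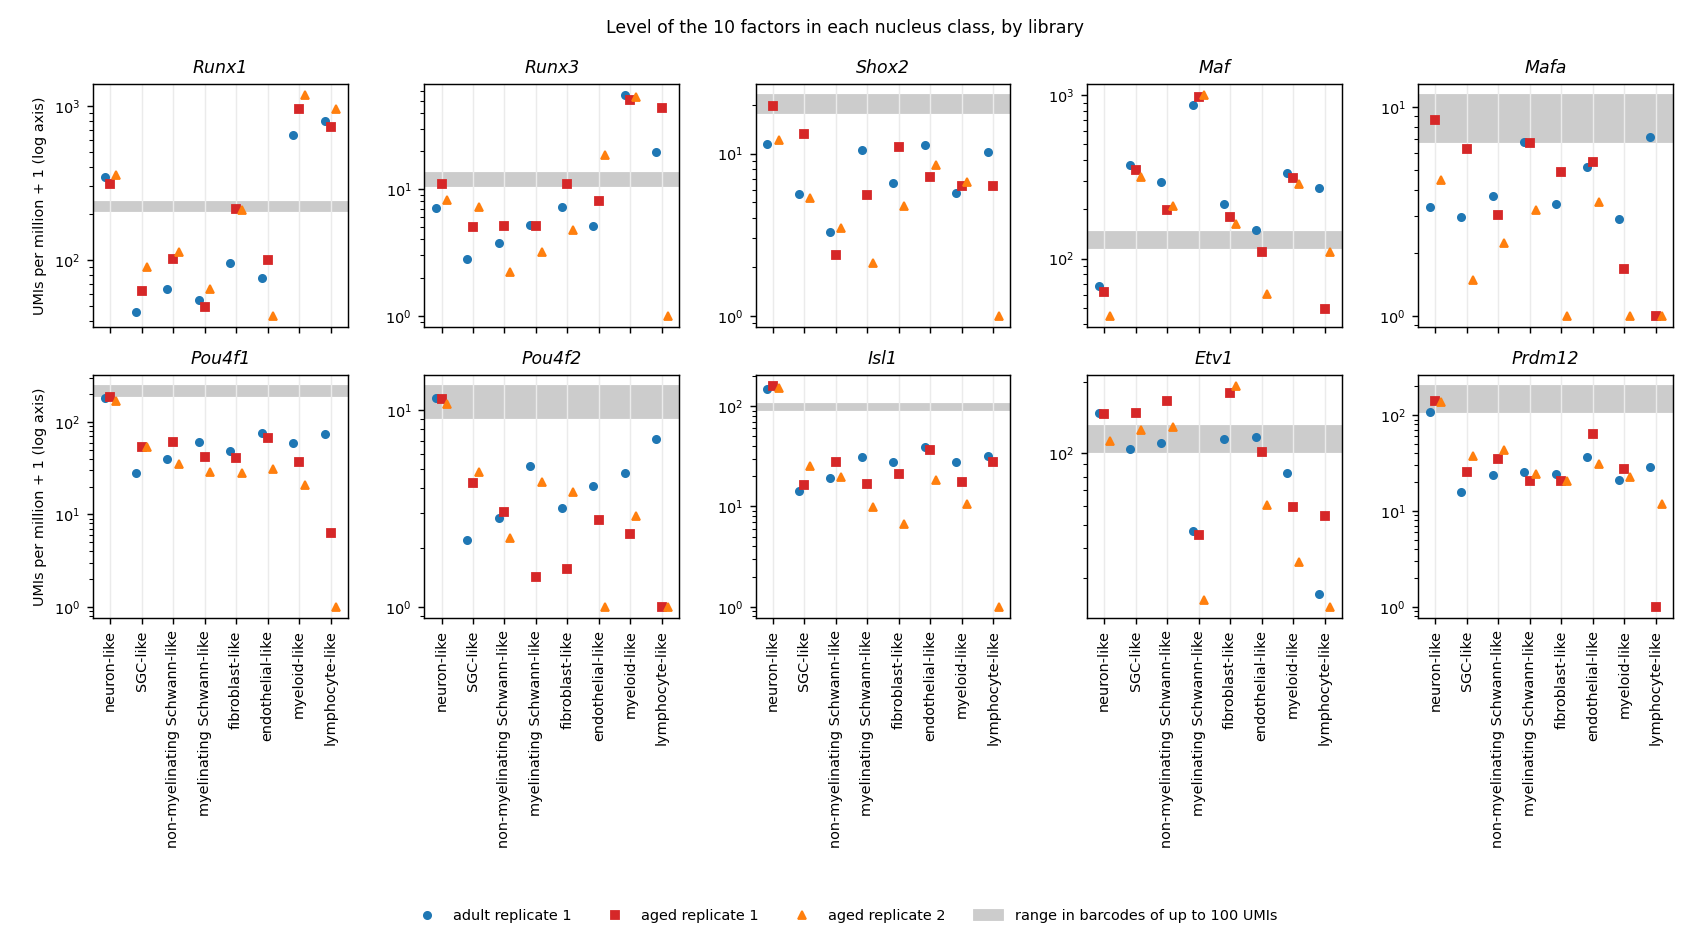
Level of each factor in 8 nucleus classes, 1 panel a gene, as CPM plus 1 on a log axis, with 1 point per library (1 adult, 2 aged) and a grey band for the range in barcodes of at most 100 UMIs. Isl1, Prdm12, Pou4f1 and Pou4f2 peak in neuron-like nuclei, Runx1 in myeloid-like and lymphocyte-like nuclei, and Maf in myelinating Schwann-like nuclei (863 to 996 CPM).

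Free RNA set a floor that differed between the genes. It held Runx1 at 207 to 237 CPM, Pou4f1 at 193 to 243, Prdm12 at 107 to 199, Maf at 115 to 145, Etv1 at 100 to 129, Isl1 at 90.9 to 103, Shox2 at 16.9 to 21.9, Runx3 at 9.56 to 12.4, Pou4f2 at 8.10 to 12.2 and Mafa at 5.82 to 10.4. The neuron-class levels of Prdm12, Pou4f1, Shox2, Runx3, Maf and Mafa lay under free RNA in each library, while those of Isl1, Runx1 and Etv1 lay above it. A level under these values may hold UMIs of free RNA, and its part was not tested gene by gene beyond an alternative that subtracts it.

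The next question was which subtypes each factor marks. Each subtype was compared with the mean of the fitted log2 levels of the other 11 over all libraries, with the library as a block. A subtype can thus be called higher although its CPM lies below the mean CPM of the others. All 10 members were called in Th C-LTMR-like nuclei (5 higher and 5 lower, against 37.7% of all 15686 genes). In large-fiber-like nuclei 7 were higher and 2 lower (57.1% of genes), in proprioceptor-like nuclei 6 and 3 (54.1%), in peptidergic C-fiber-like nuclei 2 and 7 (37.6%), in the Tll1 and Ntng1 cluster 5 and 3 (54%) and in peptidergic A-fiber-like nuclei 2 and 6 (50%). In 6 subtypes 6 of the members were called. These were Mrgprd-like nuclei with 2 higher and 4 lower (40.7%), the Mrgpra3 and Tmprss11c cluster with 2 and 4 (32.5%), Sst-like nuclei with 3 and 3 (30.7%), Trpm8-like nuclei with 3 and 3 (26.4%), A-delta LTMR-like nuclei with 2 and 4 (25.6%) and the Htr3a and Creg2 cluster with 3 and 3 (66%). In the last of these the share of members lay below the background, and it consisted of low-Malat1 nuclei alone.

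**Figure D2:**
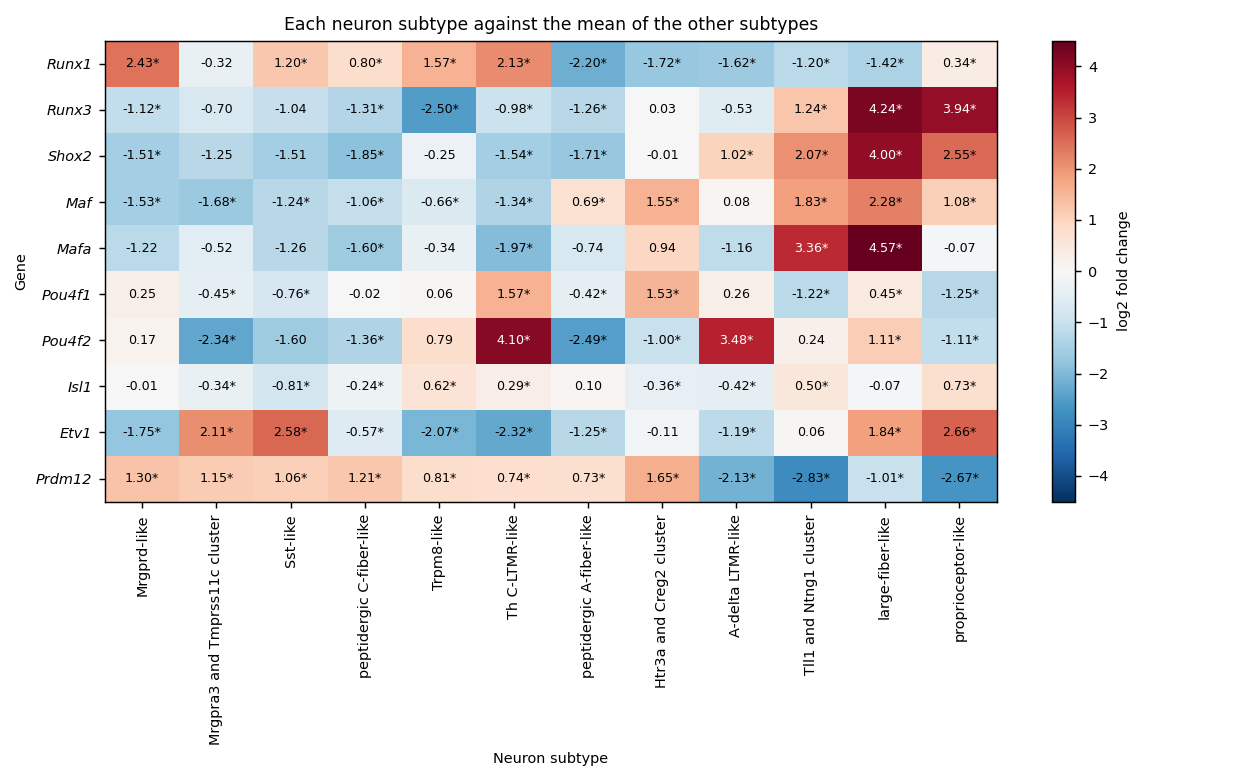
Log2 fold change of each factor in each of 12 neuron subtypes against the mean log2 level of the other 11, over 3 libraries. An asterisk marks an adjusted p under 0.05. Runx1 is positive and called in the Mrgprd-like, Sst-like, peptidergic C-fiber-like, Trpm8-like, Th C-LTMR-like and, at 0.34, proprioceptor-like columns, and the highest values for Runx3, Shox2 and Mafa sit in the large-fiber-like column (4.24, 4.004 and 4.57).

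Runx1 and Runx3 belong to 1 family, bind the same DNA letters and share the partner Cbfb. Runx1 was highest in Mrgprd-like nuclei, the non-peptidergic nociceptors, at 853, 691 and 693 CPM (746 ± 93.1, mean ± SD, n = 3 libraries). Th C-LTMR-like nuclei, the C-fiber touch neurons, came next at 628, 591 and 650 CPM, followed by Trpm8-like cold-sensing nuclei at 460, 508 and 436, Sst-like itch nuclei at 392, 340 and 408, and peptidergic C-fiber-like nuclei at 266, 299 and 296. No library of one of these 5 subtypes overlapped the next in order, and these were also the 5 in which every library lay above free RNA. Their log2 fold changes were 2.43 ± 0.105, 2.13 ± 0.11, 1.57 ± 0.12, 1.20 ± 0.13 and 0.80 ± 0.12, with adjusted p between 2.50e-19 and 2.25e-06. Runx1 was lowest in peptidergic A-fiber-like nuclei at 38.6, 45.1 and 31.1 CPM (log2 fold change -2.20 ± 0.17, adjusted p = 8.98e-13). Proprioceptor-like nuclei held 175, 178 and 220.5 CPM, which lay under free RNA in each library although they passed the test at 0.34 ± 0.13 (adjusted p = 0.031).

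Runx3 was highest where Runx1 was not. Large-fiber-like nuclei held 32.7, 51.1 and 57.5 CPM and proprioceptor-like nuclei 26.1, 35.5 and 45.5, and the ranges of these subtypes overlapped. Their log2 fold changes were 4.24 ± 0.20 (adjusted p = 5.79e-18) and 3.94 ± 0.20 (adjusted p = 2.33e-17). The Tll1 and Ntng1 cluster, with the large-fiber markers Scn1a, Slc17a7 and Lgi2, came next at 5.96, 6.49 and 5.25 CPM (1.24 ± 0.31, adjusted p = 0.00095), all below free RNA. In the other 9 subtypes Runx3 had between 0 and 5.26 CPM, and each of them overlapped the next in order.

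Some nuclei held UMIs of both genes. Of 8283 neuron-like nuclei 4801 held a Runx1 UMI and 551 a Runx3 UMI, and 367 held both, which is 7.64% of the first and 66.6% of the second, while 57.96% of all neuron-like nuclei held a Runx1 UMI. In proprioceptor-like nuclei 50.1% held a Runx1 UMI, while in myelinating Schwann-like nuclei, a class with 55.4 CPM on average, 13.5% did. The median depths were 8010 and 3054 UMIs. After each nucleus was thinned to 1000 UMIs the shares were 14.4% (exact 95% confidence interval 11.8 to 17.4) and 4.15% (3.12 to 5.39), against 47.4% (44.9 to 49.9) in Mrgprd-like nuclei. Intervals of shares cover counting error only.

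Shox2, a homeodomain factor of touch neurons, followed Runx3 in its highest subtypes. It was at 58.7, 109 and 112 CPM in large-fiber-like nuclei (4.004 ± 0.18, adjusted p = 1.80e-18), above every other subtype in each library. Proprioceptor-like nuclei (24.9, 37.9 and 39.7 CPM, 2.55 ± 0.21, adjusted p = 3.86e-12) and the Tll1 and Ntng1 cluster (20.7, 29.8 and 23.3 CPM, 2.07 ± 0.23, adjusted p = 4.17e-09) overlapped each other. A-delta LTMR-like nuclei, the down-hair touch neurons, held 14.6, 13.4 and 9.70 CPM (1.02 ± 0.31, adjusted p = 0.012), under free RNA. The other 8 subtypes lay between 0 and 9.72 CPM.

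Mafa was called higher in 2 subtypes. It was at 16.99, 46.6 and 41.2 CPM in large-fiber-like nuclei (4.57 ± 0.30, adjusted p = 2.07e-14) and at 9.73, 22.1 and 11.3 in the Tll1 and Ntng1 cluster (3.36 ± 0.35, adjusted p = 8.38e-10). In proprioceptor-like nuclei, where Runx3 and Shox2 were high, Mafa was at 1.12, 2.99 and 0 CPM (log2 fold change -0.07, no call). No other subtype was called higher for Mafa, and the next value was 0.94 ± 0.58 in the Htr3a and Creg2 cluster (edgeR, adjusted p = 0.15).

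Maf in neurons was spread more widely. It stood at 206, 169 and 190 CPM in large-fiber-like nuclei (2.28 ± 0.15, adjusted p = 1.79e-14), the one subtype above free RNA in each library. The Tll1 and Ntng1 cluster had 142, 104 and 144 CPM (1.83 ± 0.16), the Htr3a and Creg2 cluster 113, 131 and 113 (1.55 ± 0.17), proprioceptor-like nuclei 111.5, 76.7 and 51.4 (1.08 ± 0.17) and peptidergic A-fiber-like nuclei 67.4, 63.1 and 58.2 (0.69 ± 0.17), with adjusted p between 1.36e-11 and 0.00087. The 6 subtypes called lower were the Mrgpra3 and Tmprss11c cluster, Mrgprd-like, Th C-LTMR-like, Sst-like, peptidergic C-fiber-like and Trpm8-like nuclei, with log2 fold changes from -1.68 to -0.66. Of the nuclei with a Mafa UMI 68.6% also held Maf, and of those with Maf 7.10% also held Mafa (199 nuclei with both). Of all neuron-like nuclei 33.85% held a Maf UMI and 3.50% a Mafa UMI. In large-fiber-like nuclei 72.2% of those with Mafa also held Maf, against 51.65% of all nuclei of that subtype.

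**Figure D3:**
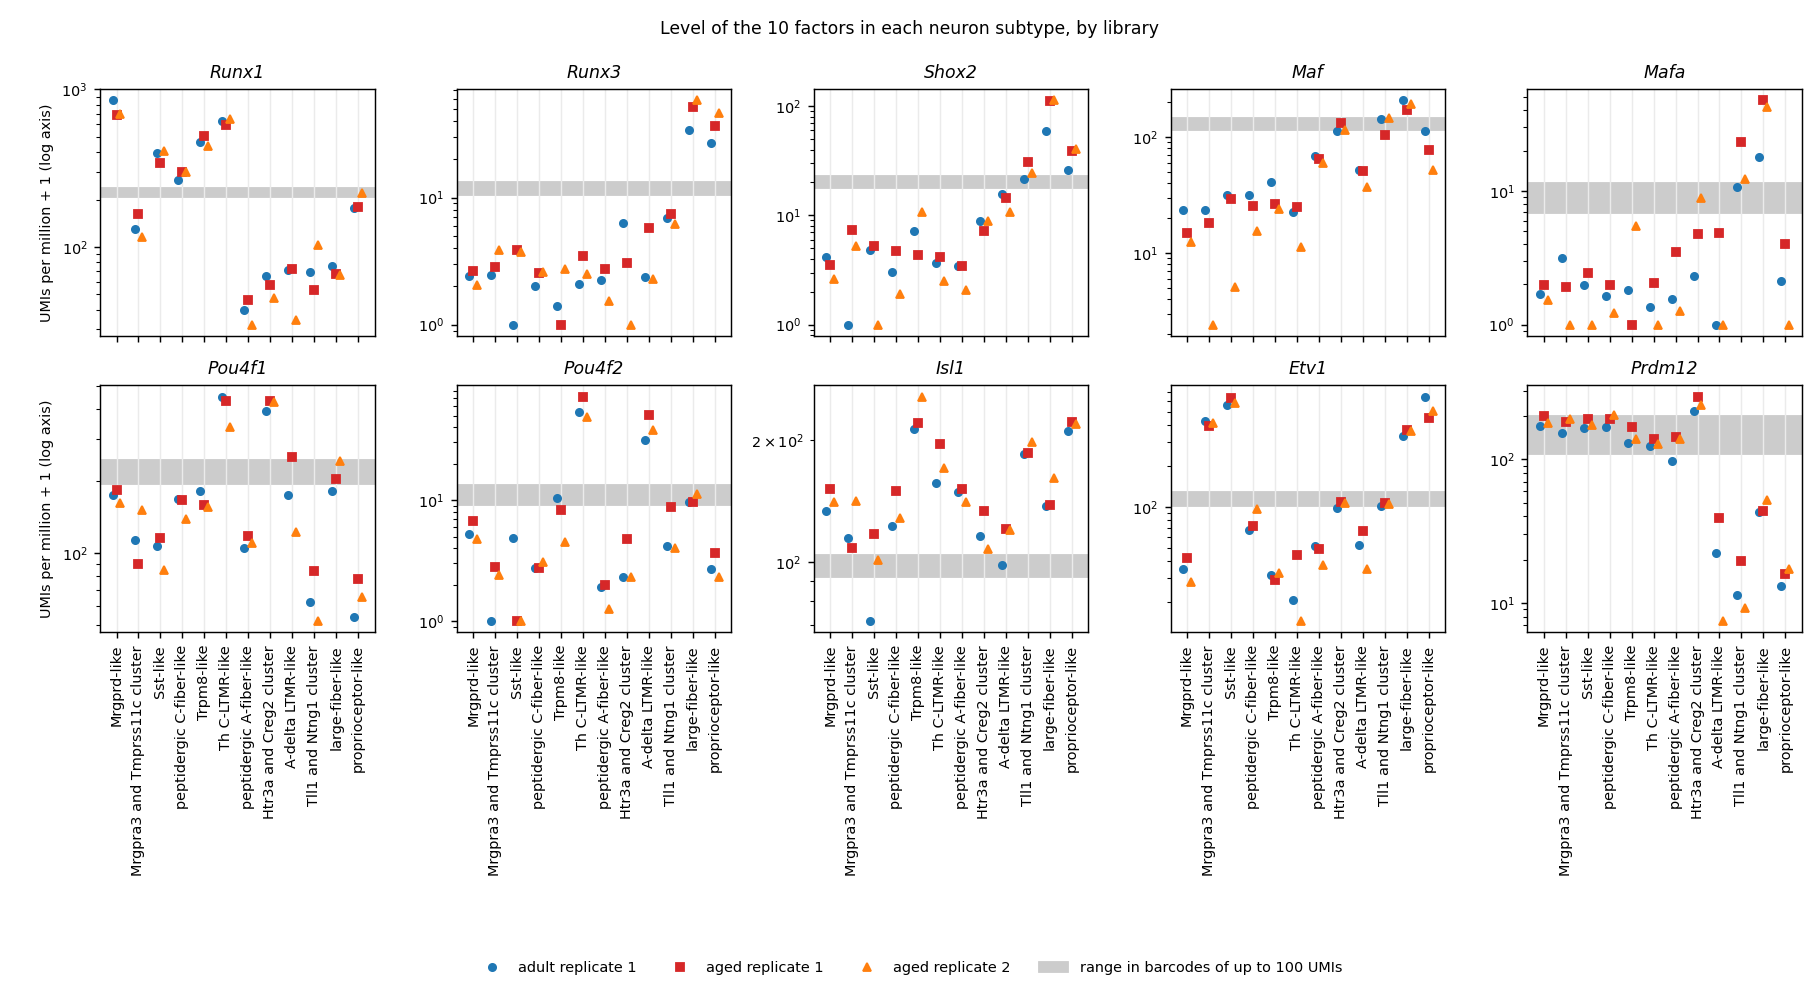
Level of each factor in 12 neuron subtypes, 1 panel a gene, as CPM plus 1 on a log axis, with 1 point per library and a grey band for the range in barcodes of at most 100 UMIs. Runx1 lies above the band in 5 subtypes, Runx3 and Shox2 rise at the right end, Pou4f2 stands up in the Th C-LTMR-like and A-delta LTMR-like columns, and Isl1 varies least.

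Isl1 varied least of the 10 between subtypes. Its mean level ran from 95.7 CPM in Sst-like to 229 CPM in Trpm8-like nuclei, a ratio of 2.39 against 6.43 for Pou4f1 and 79.3 for Pou4f2. In 10 of the 12 subtypes each library lay above free RNA. Of the 12 log2 fold changes 9 passed the test, and they lay between -0.81 (Sst-like) and 0.73 (proprioceptor-like). Trpm8-like (212, 220 and 255 CPM) and proprioceptor-like nuclei (210, 221 and 219 CPM) overlapped.

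Pou4f1 was highest in the Htr3a and Creg2 cluster at 394, 432 and 428 CPM (1.53 ± 0.11, adjusted p = 3.98e-14) and in Th C-LTMR-like nuclei at 451, 432 and 337 CPM (1.57 ± 0.10, adjusted p = 1.09e-14), which overlapped. The Htr3a and Creg2 cluster held low-Malat1 nuclei alone, and such nuclei held more Pou4f1 in other subtypes, as given below. Pou4f1 was lowest in proprioceptor-like nuclei at 53.3, 77.4 and 64.4 CPM (-1.25 ± 0.14, adjusted p = 3.94e-09) and in the Tll1 and Ntng1 cluster at 61.4, 83.3 and 51.0 CPM (-1.22 ± 0.14). These 2 subtypes overlapped each other and no other subtype.

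Pou4f2 was highest in subtypes of touch neurons, which Pou4f1 did not set apart as a group. Th C-LTMR-like nuclei held 52.6, 70.7 and 47.2 CPM (4.10 ± 0.16, adjusted p = 1.20e-20) and A-delta LTMR-like nuclei 30.6, 49.8 and 36.9 CPM (3.48 ± 0.20, adjusted p = 8.57e-16). These were the 2 subtypes above free RNA in each library, and their ranges overlapped. Large-fiber-like nuclei came next at 8.65, 8.56 and 10.1 CPM (1.11 ± 0.25, adjusted p = 0.00037), and peptidergic A-fiber-like nuclei were lowest at 0.90, 0.99 and 0.27 CPM (-2.49 ± 0.38). In Th C-LTMR-like nuclei 44.3% held a Pou4f2 UMI and 86.0% a Pou4f1 UMI, and 94.9% of those with Pou4f2 also held Pou4f1.

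Etv1, an ETS family factor, was highest in 4 subtypes. It was at 648, 451 and 507 CPM in proprioceptor-like nuclei (2.66 ± 0.12, adjusted p = 2.65e-19), at 565, 635 and 585 in Sst-like nuclei (2.58 ± 0.13, adjusted p = 1.37e-17), at 429, 394 and 417 in the Mrgpra3 and Tmprss11c cluster, which leads with itch receptor genes (2.11 ± 0.13, adjusted p = 1.05e-14), and at 331, 371 and 360 in large-fiber-like nuclei (1.84 ± 0.13, adjusted p = 6.78e-14). The first 2 overlapped, and the others stood apart from each other. After thinning to 1000 UMIs 47.4% of Sst-like nuclei (39.4 to 55.6), 34.9% of proprioceptor-like nuclei (31.2 to 38.7) and 2.75% of Th C-LTMR-like nuclei (1.75 to 4.10) held an Etv1 UMI. The 6 subtypes called lower ran down to Th C-LTMR-like nuclei at 19.8, 43.1 and 13.5 CPM (-2.32 ± 0.19, adjusted p = 5.32e-12).

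Prdm12, a factor with a SET-related domain whose gene is mutated in some people born without pain, divided the subtypes into 8 higher and 4 lower, and each of its 12 contrasts was called. The higher ones were the Htr3a and Creg2 cluster (217, 273 and 238 CPM, 1.65 ± 0.12), Mrgprd-like (182 ± 15.8 CPM, mean ± SD, n = 3, 1.30 ± 0.11), peptidergic C-fiber-like (166, 191 and 204 CPM, 1.21 ± 0.11), the Mrgpra3 and Tmprss11c cluster, Sst-like, Trpm8-like, Th C-LTMR-like and peptidergic A-fiber-like nuclei. The lower ones were the Tll1 and Ntng1 cluster at 10.3, 18.5 and 8.26 CPM (-2.83 ± 0.19, adjusted p = 2.28e-14), proprioceptor-like nuclei at 12.1, 15.0 and 16.3 (-2.67 ± 0.18, adjusted p = 2.48e-14), A-delta LTMR-like nuclei at 21.4, 38.3 and 6.47 (-2.13 ± 0.19) and large-fiber-like nuclei at 41.7, 42.8 and 51.4 (-1.01 ± 0.15). No library of the 8 higher subtypes overlapped any of the 4 lower ones. Every library lay above free RNA in 2 subtypes, the Htr3a and Creg2 cluster and peptidergic C-fiber-like nuclei. The former held low-Malat1 nuclei alone, and such nuclei held more Prdm12 in other subtypes, as given below. Peptidergic A-fiber-like nuclei, at 96.7, 141.7 and 136.9 CPM, lay under free RNA in each library although they were called higher. The antisense gene Gm13425 was among the 3 genes most like Prdm12 (Pearson r = 0.92 over 36 subtype and library sums), after Rims3 (0.94) and Cd9 (0.93), and its reads may be mixed with those of Prdm12.

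The genes most like the other members, by Pearson r of log2(CPM + 1) over the same 36 sums of 12 subtypes, are given as a description, as the sums share libraries. They were Phldb1 (0.88), Arhgap26 (0.88) and Zfhx4 (0.87) for Runx1, Srpx2 (0.88), Wnt7a (0.87) and Lancl3 (0.86) for Runx3, and Sparcl1 (0.89), Sh3bgr (0.88) and Haghl (0.88) for Shox2. For Mafa they were Hapln1 (0.87), Cryba2 (0.83) and Ibsp (0.81), for Maf Hhatl, Htra1 and Snrpn (0.89 to 0.90), and for Pou4f1 Tmem254 (0.94), Pja1 (0.91) and Lrrc75b (0.90). For Pou4f2 they were Adrb1, Ptpre and Fbxo9 (0.85 to 0.86), for Isl1 Phf21b, Rapgef2 and Tmem132d (0.82 to 0.85) and for Etv1 Jak1, Plekhg1 and Tiam1 (0.78 to 0.84).

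Low-Malat1 clusters were found in 5 subtypes, and in 4 of these a cluster with usual Malat1 stood beside one. They are given as values, without a test, since the clusters were drawn from these nuclei. In large-fiber-like nuclei 62.5%, 89.0% and 87.0% were of low Malat1 by library, and those nuclei held 98.4% of the Runx3, 97.8% of the Shox2 and 98.97% of the Mafa UMIs of the subtype. Runx3 was at 49.1, 70.0 and 78.9 CPM in them and at 1.79, 2.85 and 2.41 in the large-fiber-like cluster with usual Malat1. Shox2 was at 88.2, 149.7 and 149.4 CPM in them and at 2.68, 6.66 and 16.9 in the others. The levels of the whole subtype lay between those of its clusters, since both add to its total UMIs. Etv1 differed less there, at 473 against 81.1 CPM on average, and Maf at 215 against 126. The 2 clusters also differed in leading genes, with Ibsp, Hspb6 and Nefh in the low-Malat1 one and Gm14066, Plut and L3mbtl4 in the other. The latter was named against the median of the other clusters, as no list had 3 markers raised against the mean. With log-normalized clustering the cluster led by Gm14066 and L3mbtl4 did not take the large-fiber name. The low-Malat1 cluster led by Kcng4 and Hapln4 took it, and there the proprioceptor markers Pvalb, Ntrk3 and Spp1 were raised too. Ntrk3 and Spp1 are in both lists. The proprioceptor-like cluster of that clustering also had the large-fiber markers Spp1, Scn1a and Slc17a7 raised. Whether the 2 large-fiber-like clusters hold the same kind of neuron was not tested. Nor was it tested how far the low-Malat1 one is apart from proprioceptor-like nuclei.

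In the other subtypes with both kinds of cluster, low Malat1 went with more Pou4f1 and Prdm12 in CPM. Pou4f1 was at 398 against 152 CPM on average in Mrgprd-like, 1005 against 324 in Th C-LTMR-like and 340 against 136 in A-delta LTMR-like nuclei. Prdm12 was at 328.5 against 169 CPM in Mrgprd-like, 250.4 against 113 in Th C-LTMR-like and 47.8 against 15.2 in A-delta LTMR-like nuclei. The Htr3a and Creg2 cluster, all of low Malat1, was at 418 CPM of Pou4f1 and 243 of Prdm12 on average. Its Pou4f1 lay between the low-Malat1 values of Th C-LTMR-like and Mrgprd-like nuclei. Its Prdm12 lay below both of these and above that of A-delta LTMR-like nuclei. Runx1 went in both directions, at 544 against 761 CPM in Mrgprd-like and 683 against 613 in Th C-LTMR-like nuclei. So did Isl1, at 153 against 140 and 152 against 177 in the same order.

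**Figure D4:**
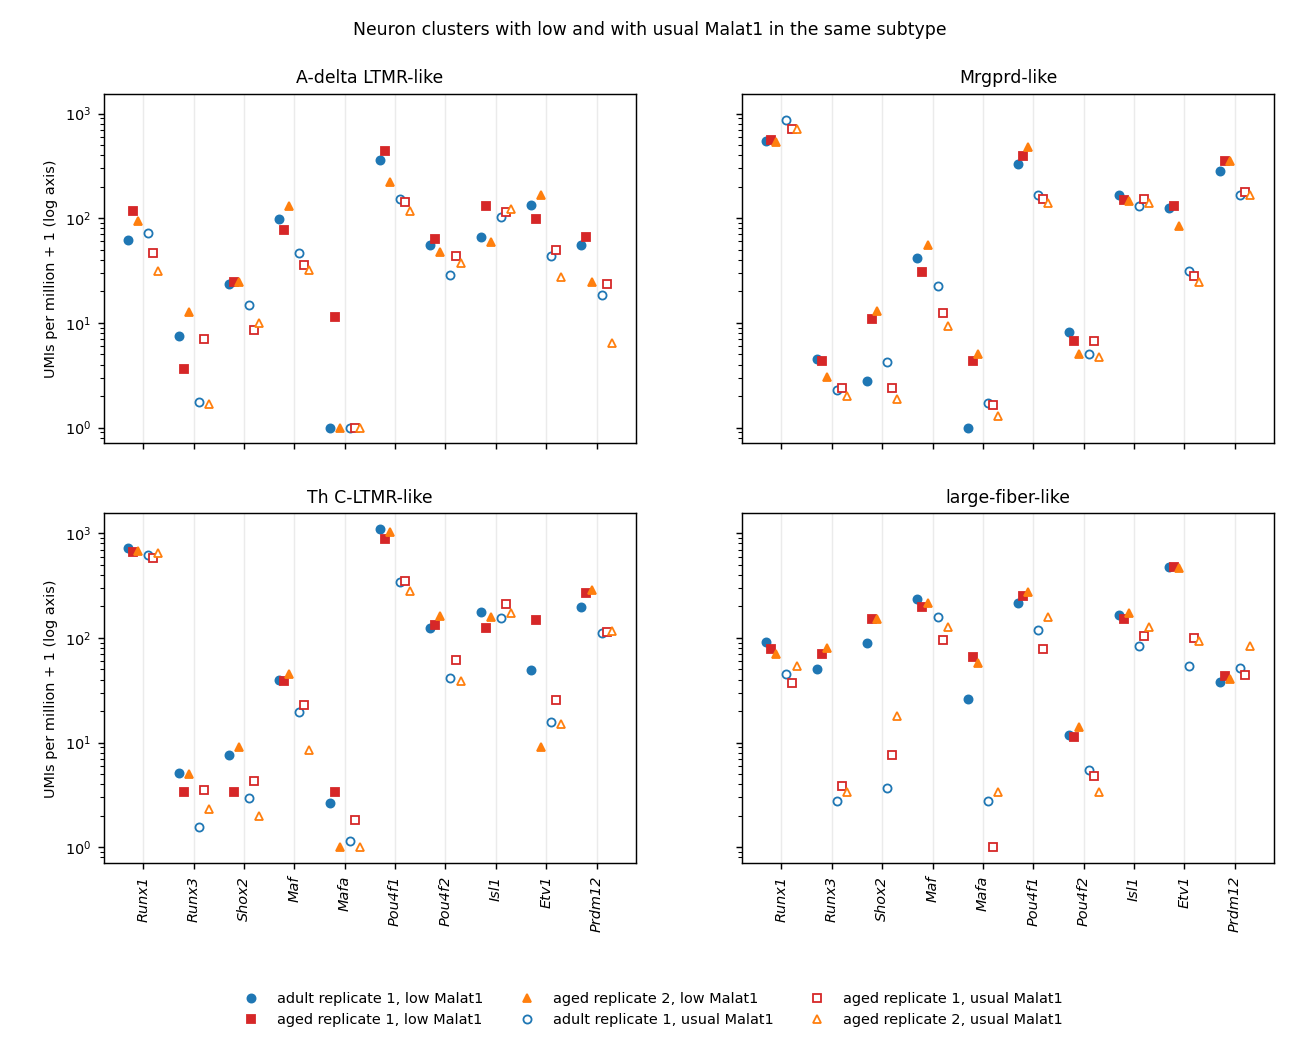
Level of each factor in the low-Malat1 (filled) and usual-Malat1 (open) clusters of the 4 subtypes that held both, as CPM plus 1 on a log axis, 1 point per library. In large-fiber-like nuclei the filled points of Runx3, Shox2 and Mafa stand above the open ones in each library, while Isl1 nearly meets in Mrgprd-like nuclei (153 against 140 CPM on average).

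Without the 5 low-Malat1 clusters 10 subtypes could be compared, large-fiber-like nuclei and the Htr3a and Creg2 cluster no longer among them. Of the 74 calls of members in these 10 subtypes 62 were called again in the same direction, and no called member took the opposite direction. Runx3 (4.51) and Shox2 (3.10) were then highest in proprioceptor-like nuclei. Etv1 was level between proprioceptor-like (2.97 ± 0.10) and Sst-like nuclei (2.96 ± 0.11). Mafa (4.56) and Maf (2.30) were highest in the Tll1 and Ntng1 cluster, Runx1 in Mrgprd-like (2.24) and Pou4f2 in Th C-LTMR-like nuclei (3.97). The Runx1 call in proprioceptor-like nuclei was lost (0.00, adjusted p = 0.99). Also lost were the Maf calls in Trpm8-like (-0.20, edgeR, adjusted p = 0.57) and Sst-like nuclei (-0.795, edgeR, adjusted p = 0.053), among others.

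Age was asked first in all neuron-like nuclei. The design has 1 adult library, so the test takes the adult library to vary like the aged ones, with 1 residual degree of freedom. Of the 10 members 1 was called, against 9.27% of 21905 genes. Mafa was higher in the aged libraries, at 2.33 CPM in the adult against 7.61 and 3.48 CPM (log2 fold change 1.14 ± 0.31, adjusted p = 0.0045). The aged libraries differed from each other by more than the second of them did from the adult. Without aged replicate 1 the value was 0.48, and without aged replicate 2 it was 1.56. The call was lost without the low-Malat1 clusters (0.46, adjusted p = 0.54), with DESeq2 (1.13, adjusted p = 0.28) and with free RNA subtracted (1.26, adjusted p = 0.24). All 3 levels lay under those of Mafa in free RNA, which were 5.82, 10.4 and 8.58 CPM in the same order. Maf was next, at 66.9 CPM in the adult and 61.7 and 43.8 CPM in the aged libraries (-0.46 ± 0.22, adjusted p = 0.20). It was called lower without the low-Malat1 clusters (-0.68, adjusted p = 0.031), and its value was -0.71 without aged replicate 1 and -0.26 without aged replicate 2. The other 8 had log2 fold changes from -0.31 (Etv1) to 0.39 (Shox2 and Runx3), none of which was called. Leaving out 1 aged library moved Shox2 between 0.00 and 0.68, Runx3 between 0.15 and 0.58, Etv1 between -0.50 and -0.16, Runx1 between -0.30 and -0.06 and Pou4f1 between -0.22 and -0.09. Isl1 was at -0.06 ± 0.22 and Pou4f1 at -0.15 ± 0.22. In simulated counts of the same design the test recovered 26 of 100 genes changed 2-fold and 92 of 100 changed 4-fold. Those genes were drawn at random with 1 dispersion for all, so the shares do not give the recovery for the members. A missed change in a member remains possible.

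Within the subtypes 6 of 96 member tests were called, against 4.11% of 160446 tests over all genes. These were all in 4 subtypes, and in the other 8 no member was called. Maf was lower in aged proprioceptor-like nuclei, at 111.5 CPM in the adult against 76.7 and 51.4 in the aged libraries (-1.01 ± 0.22, adjusted p = 0.00030, with 5.97% of 14130 genes called). It was also lower in Mrgprd-like nuclei, at 22.6 against 13.8 and 11.5 CPM (-0.95 ± 0.26, adjusted p = 0.0044, with 10.9% of 16645 genes called), and in peptidergic C-fiber-like nuclei, at 30.8 against 24.6 and 14.4 CPM (-0.81 ± 0.25, adjusted p = 0.022, 6.17% of genes called). All of these levels lay under those of Maf in free RNA. Low-Malat1 nuclei made up 12.8%, 39.4% and 26.3% of Mrgprd-like nuclei by library, and without them the Maf value there was -1.23 (adjusted p = 1.03e-05). The fitted Maf log2 fold change was negative in 11 of 12 subtypes, from -1.28 to 0.06, and in CPM both aged libraries lay below the adult in 9 subtypes. Tallies of this size also arose for members with no age call. In CPM both aged libraries lay above the adult in 10 subtypes and below it in 0 for Prdm12, and in 9 and 0 for Isl1. In 1 model over all subtypes, with the subtype as a term, the Maf value was -0.59 (edgeR, adjusted p = 0.00022). That model counts subtype sums of the same 3 libraries as separate samples, so that its p is too small. Without aged replicate 1 or 2 the Maf value ranged from -1.34 to -0.76 in proprioceptor-like and from -1.22 to -0.50 in peptidergic C-fiber-like nuclei.

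Markers of glia, the cells with the most Maf, are given beside these calls. The summed level of 7 myelinating Schwann markers in proprioceptor-like nuclei was 227 CPM in the adult and 201 and 131 CPM in the aged libraries, in Mrgprd-like nuclei 429 against 306 and 222.5, and in peptidergic C-fiber-like nuclei 385 against 302 and 216. All 7 markers had UMIs in each of these sums except Mag, which was at 0 in aged replicate 2 of proprioceptor-like and peptidergic C-fiber-like nuclei. The 5 SGC markers, each with UMIs, summed to 149, 163 and 74.8 CPM in proprioceptor-like, 248, 212 and 128 in Mrgprd-like and 313, 267 and 175 in peptidergic C-fiber-like nuclei. The Schwann sums were lower in both aged libraries, as Maf was, while the SGC sum of proprioceptor-like nuclei was higher in aged replicate 1 than in the adult. In large-fiber-like nuclei, where Maf had no call, the Schwann markers summed to 538, 393 and 326.5 CPM and the SGC markers to 714, 620 and 444. The part of glial RNA in the Maf result was not tested.

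Etv1 was lower in aged proprioceptor-like nuclei, at 648 CPM in the adult against 451 and 507 CPM in the aged libraries (-0.68 ± 0.16, adjusted p = 0.0011). In the other 11 subtypes its log2 fold changes lay between -0.50 and 0.34, and none was called. In large-fiber-like nuclei 7.81% of 14119 genes were called. Mafa was at 16.99 CPM in the adult against 46.6 and 41.2 CPM in the aged libraries (1.28 ± 0.27, adjusted p = 0.00087). Shox2 was at 58.7 CPM against 109 and 112 CPM (0.81 ± 0.19, adjusted p = 0.0024). Runx3 went from 32.7 to 51.1 and 57.5 CPM in the same nuclei (0.61, no call). The share of low-Malat1 nuclei, which hold nearly all UMIs of these 3 genes, was 62.5% in the adult and 89.0% and 87.0% in the aged libraries, and its part in these differences was not tested. Within the low-Malat1 cluster the levels were 25.0 CPM in the adult and 64.8 and 56.4 in the aged libraries for Mafa, and 88.2 against 149.7 and 149.4 for Shox2, given without a test.

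Runx1, Runx3, Pou4f1, Pou4f2, Isl1 and Prdm12 had no call in any subtype. Runx1 was at 853 CPM in adult against 691 and 693 in aged Mrgprd-like nuclei (-0.42), and its fitted log2 fold change was negative in 11 of 12 subtypes, from -0.62 to 0.00. In CPM both aged libraries lay below the adult in 3 subtypes, above it in 2 and on either side of it in 7. These tallies differ in scaling and also in rule, since the second needs both aged libraries on 1 side. The part of each was not tested. DESeq2 called none of the 6 age differences (adjusted p between 0.12 and 0.81), with log2 fold changes of the same sign. After subtraction of free RNA 1 of the 6 was called by edgeR, Maf in Mrgprd-like nuclei. With log-normalized clustering by library the Shox2 call in large-fiber-like nuclei (0.53, adjusted p = 0.057, edgeR) and the Maf call in peptidergic C-fiber-like nuclei (-0.68, adjusted p = 0.14, edgeR) were also lost, the latter also without a filter on low counts (-0.79, adjusted p = 0.052, edgeR).

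Whether an age effect differed between subtypes was tested as the difference of each subtype's age effect from the mean of the others. None of the 120 member tests was called (edgeR, smallest adjusted p = 0.33, 6 with an unadjusted p under 0.05), against 0.0483% of 188232 tests over all genes. DESeq2 also called none, with 4 at an unadjusted p under 0.05. The age effects of Maf, Etv1, Mafa and Shox2 are thus not shown to be particular to the subtypes in which they were called.

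**Figure D5:**
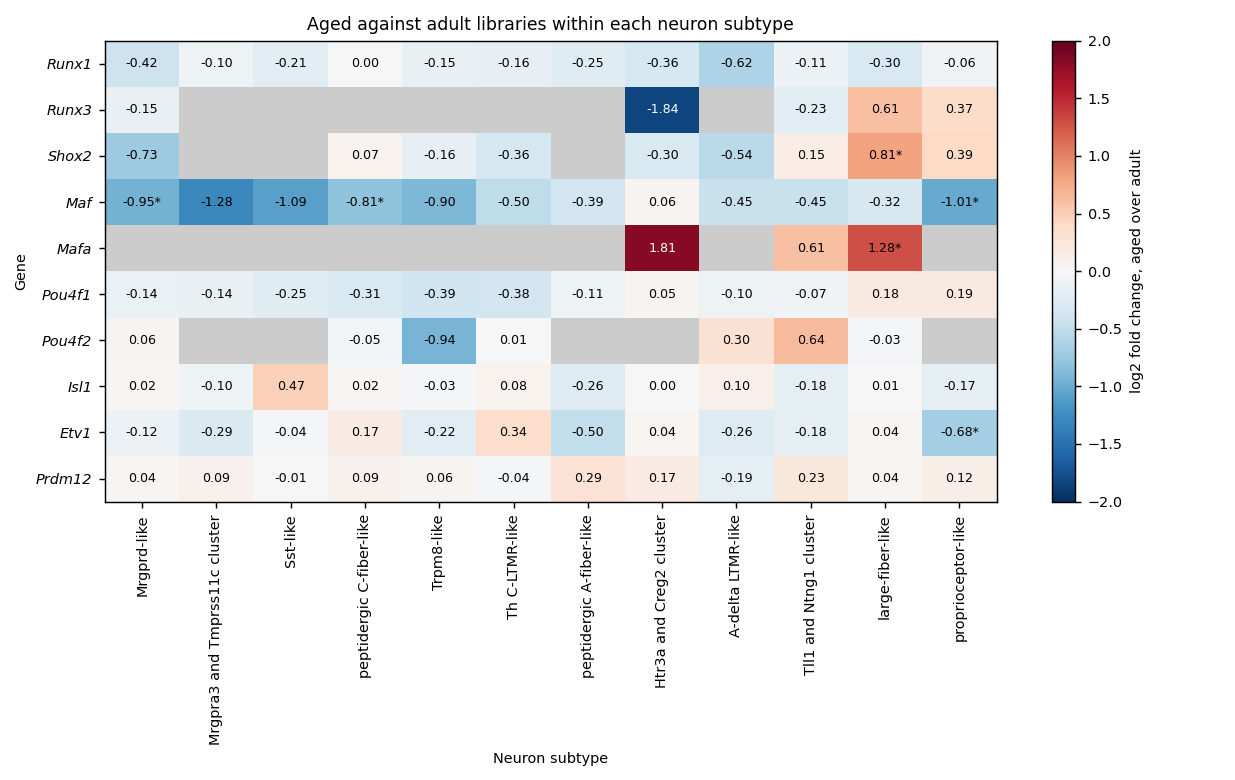
Log2 fold change of each factor in aged over adult libraries within 12 neuron subtypes (1 adult, 2 aged libraries), with an asterisk where the adjusted p was under 0.05 and grey cells where a gene had too few counts to be tested. The Maf row is blue in 11 of 12 columns, and the asterisks in the large-fiber-like column belong to Mafa (1.28) and Shox2 (0.81).

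Partners, relatives and other factors of sensory neurons were taken from a list of 65 genes, of which 5 served as markers and were left out. In neuron-like sums 25 of the 49 tested were higher and 17 lower than in the other classes (median log2 fold change 0.54, against 0.00 over all genes), beside 4904 higher and 4538 lower of all 14908 genes. Myt1l (3.82), Esrrb (3.38) and Onecut1 (3.15) were the highest, and Nr2f1 (-3.05), Etv4 (-2.89) and Zeb2 (-2.17) the lowest. Between subtypes 50 were tested. Onecut1 led in proprioceptor-like (4.05), large-fiber-like (2.81) and Tll1 and Ntng1 nuclei (3.10), the subtypes with the most Runx3 and Shox2. Runx2, the remaining RUNX gene, led in Mrgprd-like nuclei (2.52) as Runx1 did, and it was lower in large-fiber-like nuclei (-1.31). Casz1 led in Th C-LTMR-like nuclei (2.67), Hmx1 in Trpm8-like nuclei (3.65), Tshz2 in Sst-like nuclei (1.51), Etv4 in the Mrgpra3 and Tmprss11c cluster (3.65), Ebf2 in peptidergic A-fiber-like nuclei (3.31), Zeb2 in peptidergic C-fiber-like nuclei (2.79) and Hoxd1 in the Htr3a and Creg2 cluster (3.29). In aged neuron-like sums 2 of 58 were higher, among them Neurog2 (3.83), and 3 were lower, Rorb (-1.22), Prdm16 (-0.83) and Onecut1 (-0.75). That is 5 called of 58, beside the background of 9.27%, so that the share of the list lay near that of all genes. The median log2 fold change of the list was -0.04, against 0.01 over all genes. Within the subtypes the called genes of the list were mostly lower in the aged libraries. In Mrgprd-like nuclei 1 of 51 was higher and 9 were lower (10.9% of all genes called), in peptidergic C-fiber-like nuclei the 7 called of 50 were lower (6.17%), in proprioceptor-like nuclei 1 of 45 was higher and 3 were lower (5.97%), and in large-fiber-like nuclei 1 of 49 and 3 (7.81%). Calls over all genes were also mostly lower, at 1328 against 493 higher in Mrgprd-like and 737 against 193 in peptidergic C-fiber-like nuclei. Prdm16 was among the called genes in proprioceptor-like (-1.35, adjusted p = 2.09e-08), large-fiber-like (-1.13, adjusted p = 7.41e-07) and peptidergic C-fiber-like nuclei (-0.78, adjusted p = 0.0033).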

How the data were processed

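Nuclei of 1 adult and 2 aged libraries were prepared with a 3′ single-nucleus kit. The tables deposited hold UMI counts before any normalization, made by the authors with PIPseeker on the mouse build mm10, and strand handling is not given in the sources used here. Barcodes with more than 1000 genes were kept, and doublets were not called beyond setting aside 1226 nuclei in clusters with mixed markers. Nuclei were clustered with Seurat 5.3.0 (SCTransform, RPCA integration by age, 30 components, resolution 0.8) without the 10 members among the features, and named from fixed markers. UMIs were summed per library and class, in classes of 20 or more nuclei in each library, and tested with edgeR 4.0.16 (quasi-likelihood, TMM, low-count filter, prior count 0.125) and Benjamini-Hochberg adjustment over all genes. DESeq2 1.42.0 and other alternatives are described in the closing section. The methods were tested on simulated data. Totals of 69045987 to 167664164 UMIs per library set the precision, and intervals of shares are exact (95%). The members and gene lists were chosen with earlier results of these data known. All 10 members are named, and of the other factors the 3 called genes with the largest change in each direction. Maf and Mafa had no promoter window. The values of some of the other factors are not reported here.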

Additional observations from a re-analysis of the deposited data

How the results depend on the processing

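No paired analysis was possible because the groups share fewer than 2 replicate numbers. Member calls between subtypes numbered 89 in the reported fit. They numbered 38 when nuclei were assigned by marker counts in place of clusters, which left 6 subtypes to compare. Leaving out 1 library gave totals of 72 to 80 calls between subtypes, and of 8 in each case for neurons against other classes. These are totals per setting and do not say how many of the same calls recurred. For age in neuron-like sums, 1 call became 0 with DESeq2, 0 with free RNA subtracted and 2 with the subtype as a term. These 2 were Maf (-0.59, adjusted p = 0.00022) and Runx1 (-0.21, adjusted p = 0.047, edgeR). That model takes subtype sums of the same 3 libraries as separate samples, so that its p-values are too small. Within subtypes, 6 age calls became 0 with DESeq2, 1 with free RNA subtracted and 3 with marker counts. The subtype with the highest share of nuclei with a UMI was also that of the highest level for 4 of 10 members, and for 9 after thinning to 1000 UMIs. Among the values followed one by one under these alternatives, none reversed. Between subtypes these were the highest contrast of each member, and marker counts were not part of this. Outside them, Pou4f1 in peptidergic C-fiber-like nuclei was at -0.02 with no call. Without the low-Malat1 clusters it was called higher there (0.25, edgeR, adjusted p = 0.040). Causes of these changes were not tested, except that the marker count leaves fewer subtypes. With a single adult library, the age tests rest on 1 residual degree of freedom, and simulated 2-fold changes were recovered for 12 of 100 genes in large-fiber-like sums, where 10 unchanged genes were also called.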
